A study of Mus musculus with 6 samples.

Results

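The 7 genes described here carry antigen presentation by major histocompatibility complex (MHC) class II: H2-Aa, H2-Ab1, H2-Eb1, H2-DMa, H2-DMb1, Cd74 and Ciita. They were chosen by symbol from the 41388 Ensembl identifiers of the count table, and all 7 matched a row. RNA was sequenced from fibrotic livers of BALB/c mice, with tissue taken from each lobe. The AL/NP group (3 libraries) came from mice given nanogels loaded with alendronate, a bisphosphonate, at 4 mg/kg alendronate in 2 injections a week over the final 2 weeks of fibrosis induction. The control group (3 libraries) came from mice labelled as untreated fibrotic controls. All mice of both groups had received carbon tetrachloride (CCl4), a liver toxin, for 5 weeks. The labels give no age or sex, and do not say whether controls were injected. Neither healthy liver nor a nanogel without drug is among the samples, so drug, carrier and injection cannot be told apart. The labels number the replicates without saying that each is a separate animal, so p-values measure the spread between these samples, which may be technical in part.

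MHC class II molecules show peptides from engulfed or internal material to CD4+ T cells. Each is a pair of an alpha and a beta chain, assembled around the invariant chain, the product of Cd74, which keeps the groove closed and steers the complex to endosomes. There proteases trim the invariant chain, and H2-DM exchanges its last fragment for a peptide. The genes are switched on together by CIITA, a coactivator that binds no DNA itself and acts through factors sitting on the X and Y boxes of class II promoters. Macrophages, dendritic cells and B cells are the main carriers in liver, and interferon-gamma induces Ciita in other cells too.

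Library totals ran from 30554483 to 39838428 counts, at which 3 counts equal between 0.0826 and 0.104 CPM (read counts brought to a common library total and scaled by TMM, edgeR's normalization). Control replicate 3 stood apart: its TMM factor was 0.809, against 0.937 to 1.13 in the other 5 libraries, and the mitochondrial genome supplied 26.7% of its counts, compared with 12.0% to 19.8% elsewhere. The 7 genes, and the lists of macrophage, dendritic cell and B cell markers, are given with and without it. Liver markers were present in all 6 libraries, and albumin (Alb) averaged 40254 CPM with AL/NP, against 47339 CPM for controls.

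None of the 7 genes passed the edgeR quasi-likelihood test at an adjusted p of 0.05, where 0.0816% of 15939 tested genes did, 0.0627% as higher with AL/NP and 0.0188% as lower. All 7 had a positive log2 fold change, where 50% of all tested genes did (7965 of 15939), and their median was 0.82, against -0.00 over all tested genes. At an unadjusted p under 0.05, 5 of the 7 were higher with AL/NP, and none lower, where 9.37% of all tested genes were in that direction and 19.6% in either. DESeq2 called 1 of the 7, H2-Eb1, where it called 5.07% of its tested genes and 2.59% as higher; limma-voom called 0. The groups did not overlap in 2 of the 7, H2-Ab1 and H2-Eb1, against 14.5% of all tested genes with every AL/NP library above every control. Without control replicate 3, a choice made after seeing the data, the median was 1.21. The groups were then apart in 6 of the 7, against 20.8% of all genes tested in that smaller comparison. Macrophage markers were apart there in 10 of 12, and the proteases and reductase that prepare peptides in 8 of 8.

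**Figure D1:**
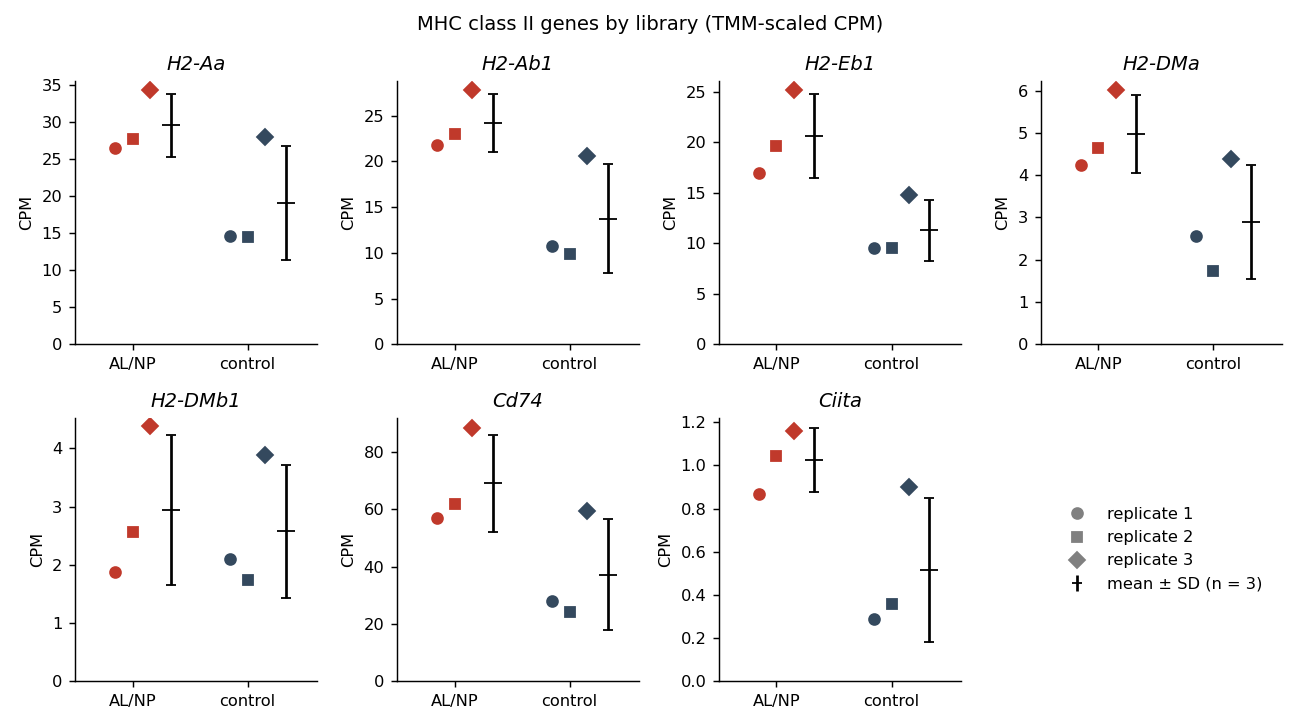
TMM-scaled CPM of the 7 class II genes in each library, with AL/NP to the left of control; each point is 1 library, its shape gives the replicate number, and the black bar is the mean with its SD (n = 3). Control replicate 3 lies above the other 2 controls in all 7 panels, and in H2-Ab1 and H2-Eb1 it still lies below all 3 AL/NP libraries.

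The alpha and beta chains of the classical molecules were the first group. H2-Aa (chromosome 17, 34282744 to 34287823, minus strand, protein coding, GRCm38) encodes the alpha chain of I-A. It measured 26.5, 27.7 and 34.4 CPM with AL/NP, against 14.6, 14.5 and 28.0 CPM in controls. The groups overlapped only through control replicate 3, which exceeded the lower 2 AL/NP libraries. The log2 fold change was 0.63 (SE 0.26, adjusted p = 0.236, edgeR). It was 0.46 to 1.01 with 1 library left out, highest without control replicate 3 (adjusted p = 0.0725).

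H2-Ab1 (chromosome 17, 34257689 to 34269419, plus strand, protein coding) encodes the beta chain that pairs with it. It measured 21.8, 23.0 and 27.8 CPM with AL/NP, against 10.7, 9.91 and 20.6 CPM in controls. Every AL/NP library was above every control, with control replicate 3 closest to them. This gave a log2 fold change of 0.82 (SE 0.27, adjusted p = 0.184). The value was 0.62 to 1.23 with 1 library left out, highest without that control (adjusted p = 0.0629).

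H2-Eb1 (chromosome 17, 34305867 to 34316674, plus strand, protein coding) encodes the beta chain of I-E. It measured 17, 19.7 and 25.2 CPM with AL/NP, against 9.53, 9.50 and 14.8 CPM in controls. The groups did not overlap, and control replicate 3 lay closest to the AL/NP libraries. The log2 fold change was 0.87 (SE 0.23, adjusted p = 0.135), the smallest adjusted p of the 7 genes. It was 0.70 to 1.11 with 1 library left out, highest without control replicate 3 (adjusted p = 0.0814). DESeq2 put H2-Eb1 past the threshold, with an adjusted p of 0.0187.

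The I-E alpha chain gene, listed as H2-Ea-ps and typed as a polymorphic pseudogene (chromosome 17, 34341959 to 34344645, minus strand), is a further chain with groups apart. It is silent in C57BL mice, from which the reference genome comes, and active in BALB/c mice. It measured 9.31, 10.5 and 15.1 CPM with AL/NP, against 5.49, 5.86 and 7.08 CPM in controls. The groups did not overlap, control replicate 3 included. Its fitted log2 fold change was 0.92 (SE 0.22, adjusted p = 0.124 in edgeR and 0.0100 in DESeq2). BALB/c and C57BL mice differ in the peptide-binding exons of these chains, and how that affected read alignment was not tested.

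Within a library the chains kept close proportions, with 1 difference between groups. H2-Aa had 1.21, 1.21 and 1.24 counts per count of H2-Ab1 with AL/NP, against 1.36, 1.47 and 1.36 in controls. The AL/NP ratios lay below all control ratios, control replicate 3 included. H2-Eb1 had 0.777, 0.856 and 0.907 counts per count of H2-Ab1 with AL/NP, against 0.888, 0.958 and 0.718 in controls, and these overlapped. These were 2 of 10 ratios computed, and 3 libraries against 3 cannot give a two-sided exact permutation p below 0.10.

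Cd74 (chromosome 18, 60803848 to 60812652, plus strand, protein coding) encodes the invariant chain. It measured 57.0, 61.9 and 88.5 CPM with AL/NP, against 28.1, 23.9 and 59.5 CPM in controls. Control replicate 3 exceeded AL/NP replicate 1, so the groups overlapped, while the other 2 controls lay below all AL/NP libraries. Its log2 fold change was 0.90 (SE 0.34, adjusted p = 0.214). This was 0.65 to 1.41 with 1 library left out, highest without control replicate 3 (adjusted p = 0.0725). Relative to the summed counts of H2-Aa, H2-Ab1 and H2-Eb1, Cd74 had 0.873, 0.879 and 1.01 counts with AL/NP, against 0.803, 0.705 and 0.940 in controls, which overlapped.

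H2-DMa and H2-DMb1 encode the chains of H2-DM, the peptide exchange factor. H2-DMa (chromosome 17, 34119541 to 34139101, plus strand, protein coding) measured 4.24, 4.65 and 6.01 CPM with AL/NP, against 2.56, 1.74 and 4.38 CPM in controls. Its groups overlapped only between control replicate 3 and AL/NP replicate 1. The log2 fold change was 0.78 (SE 0.34, adjusted p = 0.251), and 0.51 to 1.21 with 1 library left out, highest without control replicate 3. Brd2 shares 360 exonic bases with it on the opposite strand and had 21970 counts over the 6 libraries, against 791 for H2-DMa; with the strand setting not given, its part in the H2-DMa counts was not tested.

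H2-DMb1 (chromosome 17, 34153072 to 34160230, plus strand, protein coding) was the member whose libraries separated least by group. It measured 1.88, 2.56 and 4.38 CPM with AL/NP, against 2.10, 1.74 and 3.88 CPM in controls, so the groups interleaved. The log2 fold change was 0.20 (95% interval -0.72 to 1.12, adjusted p = 0.809). With AL/NP replicate 3 left out it was -0.21, with control replicate 2 left out -0.03, and with control replicate 3 left out 0.62. The neighbouring copy H2-DMb2 gave a similar picture, at 0.16 (SE 0.34, adjusted p = 0.813). Of the 50-base words in H2-DMb1 transcripts, 22.7% also occur in H2-DMb2, so the split of reads between the copies is uncertain. H2-DMa and H2-DMb1 together had 9.37, 10.2 and 11.9 counts per 100 counts of the 3 classical chains with AL/NP, against 13.3, 10.3 and 13.0 in controls.

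Ciita (chromosome 16, 10480059 to 10528418, plus strand, protein coding), which encodes the coactivator of these genes, was the least abundant member. Its libraries held 25, 38 and 40 counts with AL/NP and 10, 13 and 29 counts in controls, or 0.869, 1.05 and 1.16 CPM against 0.287, 0.359 and 0.901 CPM. Control replicate 3 lay just above AL/NP replicate 1, and the other 2 controls were lower than all AL/NP libraries. Its log2 fold change was 1.0 (95% interval -0.04 to 2.04, adjusted p = 0.267). This was 0.71 to 1.65 with 1 library left out, highest without control replicate 3 (adjusted p = 0.119). Dexi overlaps 329 exonic bases of Ciita on the opposite strand and had 3108 counts over the 6 libraries; its part in the Ciita counts was not tested. Per 100 counts of the 3 classical chains Ciita had 1.33, 1.49 and 1.33 counts with AL/NP, against 0.822, 1.06 and 1.42 in controls, which overlapped.

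**Figure D2:**
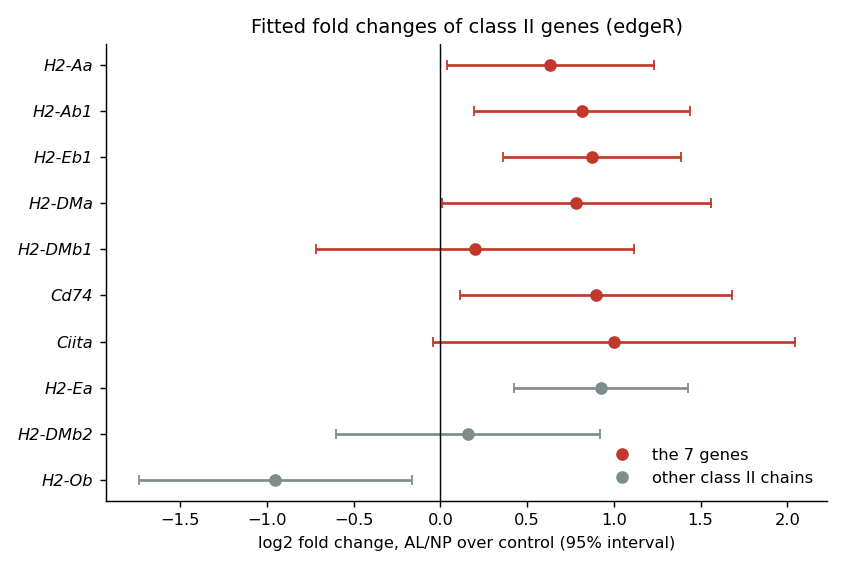
Log2 fold change of AL/NP over control with its 95% interval (edgeR, 3 libraries a group) for the 7 genes in red and the other tested class II chains in grey. The intervals of H2-DMb1, Ciita and H2-DMb2 reach across 0, and H2-Ob is the gene on the negative side.

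Per kilobase of merged exon length, Cd74 was the most abundant of the 7, at 41.2 ± 10.1 CPM per kb with AL/NP and 22.1 ± 11.6 in controls (SD, n = 3 each). Then came H2-Eb1 (10.6 ± 2.16 with AL/NP and 5.80 ± 1.56 in controls), H2-Ab1 (9.42 ± 1.23 and 5.35 ± 2.31) and H2-Aa (7.77 ± 1.11 and 5.01 ± 2.03). The intervals of mean ± SD of these 3 neighbours overlapped in both groups. H2-DMb1 (1.75 ± 0.770 and 1.53 ± 0.683) and H2-DMa (1.44 ± 0.268 and 0.839 ± 0.392) also had overlapping intervals, and Ciita was lowest, at 0.108 ± 0.0154 with AL/NP and 0.0541 ± 0.0352 in controls.

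AL/NP replicate 3 was the highest library in all 7 genes. Control replicate 2 was the lowest in 6 of them, and control replicate 1 in Ciita. Across the 6 libraries the log2 levels of H2-Aa, H2-Ab1, H2-Eb1, H2-DMa, Cd74 and Ciita correlated pairwise at r of 0.935 to 0.993, whereas those of H2-DMb1 with the other 6 were 0.660 to 0.754. These are descriptions over 6 points that share library, depth and group, and no test was made of them.

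The promoters of 3 members and H2-Ob are shown because they differ in which of the X and Y box words they hold, the boxes on which CIITA's partners sit. Only exact words were matched, so a promoter without a word may still hold that box. RefSeq promoter windows (GRCm38.p6, 250 bases before to 50 after each start) were matched for 4 members, H2-Aa, H2-Eb1, H2-DMa and H2-DMb1, and for H2-DMb2, H2-Oa, H2-Ob and H2-Eb2. The sequences are the 120 bases before the start, 5′ to 3′ on the gene's strand, for H2-Aa (chr17:34287824-34287943, minus strand), H2-Eb1 (chr17:34305747-34305866), H2-DMb1 (chr17:34153071-34153190) and H2-Ob (chr17:34238785-34238904), the last 3 on the plus strand. The start used here is that of RefSeq. In H2-DMb1 and H2-Ob it lies inside the gene spans given in the text, which begin at 34153072 and 34238903. Capitals mark the Y box word TGATTGG and, upstream of it, the X box word AACNGATG, where N is any base.
H2-Aa: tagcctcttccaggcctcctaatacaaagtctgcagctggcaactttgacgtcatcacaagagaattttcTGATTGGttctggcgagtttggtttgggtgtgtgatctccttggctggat
H2-Eb1: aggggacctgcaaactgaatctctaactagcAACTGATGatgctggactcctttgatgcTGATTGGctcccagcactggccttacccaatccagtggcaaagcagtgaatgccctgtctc
H2-DMb1: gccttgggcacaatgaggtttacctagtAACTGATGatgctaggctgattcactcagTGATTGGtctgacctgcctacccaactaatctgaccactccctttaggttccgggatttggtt
H2-Ob: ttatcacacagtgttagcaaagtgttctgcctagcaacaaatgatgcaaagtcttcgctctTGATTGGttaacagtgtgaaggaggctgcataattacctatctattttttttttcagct

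Both words were searched on both strands and do not overlap each other. They were set after these windows had been read, so the counts describe them only, and lacking a word is not lacking the box. The Y box word was in 7 of the 8 class II genes with a window, against 7.82% of all 32851 windows. The X box word was in 4 of the 8, namely H2-Eb1, H2-DMb1, H2-DMb2 and H2-Eb2, against 2.32% of all windows, and both words together were in 0.186% of all windows. In H2-Eb1 the Y box word began 61 bases before the start and the X box word 89 bases before it; in H2-DMb1 these were 63 and 92 bases. Neither word was in the 2 windows of H2-DMa. Both words were in H2-Eb1, at a log2 fold change of 0.87, and H2-DMb1, at 0.20, and the Y box word was also in H2-Ob, at -0.95. What part the words had in these values was not tested.

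H2-Ob (chromosome 17, 34238903 to 34254414, plus strand) encodes the beta chain of H2-O, an inhibitor of H2-DM found chiefly in B cells. It measured 0.348, 0.413 and 0.377 CPM with AL/NP, against 0.632, 0.690 and 0.901 CPM in controls, so every AL/NP library was below every control. H2-Ob had a log2 fold change of -0.95 (SE 0.35, adjusted p = 0.200). H2-Oa, its alpha chain partner, had 6, 9 and 7 counts with AL/NP and 4, 5 and 10 in controls. H2-Eb2 had 2, 0 and 1 counts with AL/NP, against 0, 0 and 1 in controls, and both were too low to test.

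From H2-DMa to H2-Eb1 the class II region spans 197 kb of chromosome 17 and also holds class I pathway genes. Of its 15 annotated genes in the table, 11 were tested, 5 of them among the 7 genes. The 6 others were H2-DMb2, H2-Ob, Psmb9 (log2 fold change -0.22), Tap1 (0.19), Psmb8 (0.13) and Tap2 (-0.00). Psmb8 and Psmb9 encode immunoproteasome subunits and Tap1 and Tap2 the peptide transporter of class I presentation; their SEs were 0.13 to 0.25 and their adjusted p-values 0.423 to 0.997. Lying between H2-DMb1 and H2-Ab1, these 4 genes thus had smaller fold changes than 6 of the 7 class II genes; whether they differ was not tested.

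**Figure D3:**
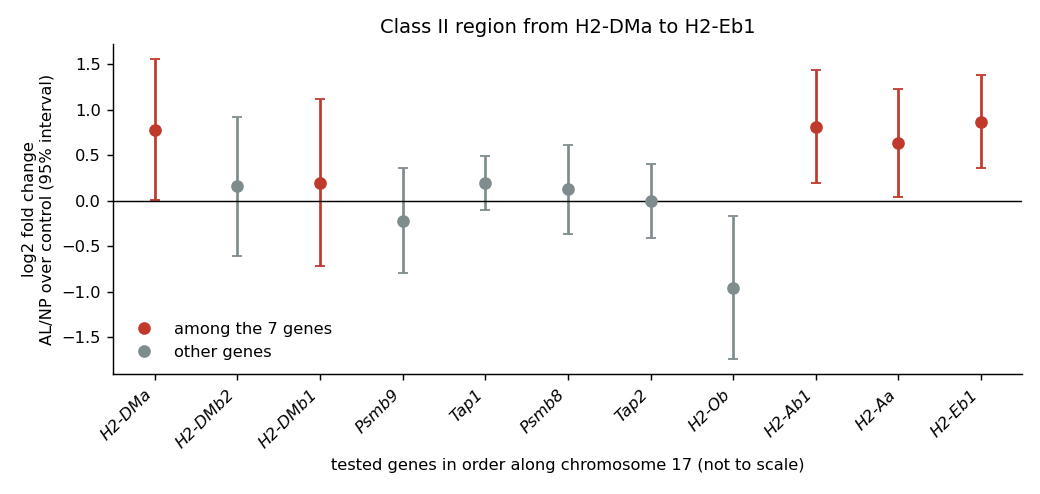
Log2 fold change of AL/NP over control with its 95% interval (edgeR) for the 11 tested genes from H2-DMa to H2-Eb1, in their order along the chromosome and not to scale. H2-Ab1, H2-Aa and H2-Eb1 sit together above 0 at one end, the 4 class I pathway genes lie near 0 and H2-Ob lies below 0.

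Class I presentation as a whole is the closest counterpart. Of 15 listed genes all were tested, 7 had positive and 8 negative log2 fold changes, and the median was -0.00. None passed in edgeR. At an unadjusted p under 0.05, 2 of the 15 were higher, against 9.37% of all tested genes. They were H2-D1 (0.48, adjusted p = 0.173) and H2-K1 (0.41, adjusted p = 0.207), which encode class I heavy chains. In H2-D1, H2-K1 and Tap1 every AL/NP library was above every control, 3 of the 15 against 14.5% of all tested genes. In 1 of the 15 every AL/NP library was below, against 15%. DESeq2 called 1 of the 15, H2-D1 (adjusted p = 0.0327), against 5.07% of all genes it tested. Tapbp, the tapasin gene, was at 0.30 (adjusted p = 0.311). Nlrc5, which encodes the class I counterpart of CIITA, was at -0.29 (SE 0.17, adjusted p = 0.350), and B2m at -0.15 (SE 0.17).

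The factors that hold CIITA on the promoters showed no common direction. Of 10 tested, none passed, 3 were above 0 and 7 below, with a median of -0.15. In the RFX complex, which binds the X box, Rfxap was at 0.66 (SE 0.17, adjusted p = 0.140), with 13.1, 9.47 and 10.9 CPM with AL/NP against 7.38, 6.82 and 6.96 CPM in controls, while Rfx5 was at -0.50 (SE 0.24, adjusted p = 0.283) and Rfxank at 0.07 (SE 0.16). Thus 1 of the 3 subunits had groups that did not overlap, against 29.5% of all tested genes in either direction. The NF-Y subunits of the Y box were at 0.09 for Nfya, -0.22 for Nfyb and -0.14 for Nfyc. Creb1 was at -0.15 and Kat2b, an acetyltransferase, at -0.02. The acetyltransferases Crebbp and Ep300 were at -0.45 and -0.51 (adjusted p = 0.147 and 0.208), and their groups did not overlap. Of the 10 factors these 2 had all AL/NP libraries below the controls, against 15% of all tested genes. DESeq2 called 1 of the 10, Rfxap (adjusted p = 0.0425), against 5.07% of all genes it tested.

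Interferon-gamma, the main inducer of Ciita outside professional presenting cells, had almost no reads: Ifng had 0, 1 and 1 counts with AL/NP, against 0, 0 and 1 in controls, and no difference was detectable at this depth. Il10, a cytokine that lowers class II, had 2, 0 and 0 counts with AL/NP, against 1, 1 and 4 in controls. Of the 8 tested genes of its pathway none passed, with 4 above 0 and 4 below. Ifngr2, a receptor chain, was at 0.57 (SE 0.23, adjusted p = 0.228), and its AL/NP libraries were all above the controls. Irf2 was at -0.63 (SE 0.19, adjusted p = 0.151), with all AL/NP libraries below the controls. Ifngr2 was thus 1 of the 8 above, against 14.5% of all tested genes, and Irf2 1 of the 8 below, against 15%. Others lay near 0: Ifngr1 at 0.22, Socs1 at 0.24, Irf1, which acts on a Ciita promoter, at 0.02, Jak1 at -0.04 and Jak2 at -0.06.

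Among genes that interferon-gamma induces, 12 were tested, none passed, 8 were above 0 and 4 below, with a median of 0.20. The smallest p-values were those of Icam1 (0.78, SE 0.13, adjusted p = 0.0787), an adhesion molecule, Gbp2 (1.63, SE 0.34, adjusted p = 0.103), a guanylate-binding protein, and Cxcl9 (0.91, SE 0.41, adjusted p = 0.261), a T cell chemokine. DESeq2 called Icam1 and Gbp2, 2 of the 12, against 5.07% of all genes it tested. In Gbp2 the libraries measured 3.27, 4.93 and 4.96 CPM with AL/NP, against 1.95, 1.41 and 0.870 CPM in controls, so control replicate 3, high for class II genes, was the lowest there. Gbp4, at -0.25, and Gbp7, at -0.54, had all AL/NP libraries below the controls. These were 2 of the 12, against 15% of all tested genes. All AL/NP libraries were above the controls in 2 of the 12 as well, against 14.5% of all tested genes.

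The proteases and reductase that prepare peptides all had positive log2 fold changes, 8 of 8 tested, with a median of 0.55. None passed in edgeR, 6 were higher at an unadjusted p under 0.05, and in 6 the AL/NP libraries were all above the controls, against 9.37% and 14.5% of all tested genes. Without control replicate 3 the groups were apart in 8, against 20.8% of all genes tested in that comparison, with a median of 0.49. Lgmn, which encodes asparaginyl endopeptidase, was at 1.11 (SE 0.29, adjusted p = 0.137) and Ctsd, for cathepsin D, at 0.60 (SE 0.16, adjusted p = 0.144). DESeq2 called both, 2 of the 8, against 5.07% of all genes it tested. Ctsz was at 0.50 (adjusted p = 0.179). Ctss, for cathepsin S, which cuts the invariant chain in presenting cells, measured 30.4, 41.9 and 87.2 CPM with AL/NP, against 24.0, 15.1 and 35.1 CPM in controls. It was at 1.11 (SE 0.43, adjusted p = 0.222), with groups that overlapped. Lgmn measured 207, 180 and 189 CPM with AL/NP, against 125, 91.7 and 50.7 CPM in controls, so control replicate 3, the highest control for class II genes, was the lowest there. That library was also the lowest control for Ctsl, Ctsb, Ctsd, Ctsh and Ctsz, and the highest control for Ctss and Ifi30.

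Marchf1 (March1 in the annotation), which encodes a ubiquitin ligase that removes class II from the surface, was at 1.22 (SE 0.47, adjusted p = 0.212), and the related Marchf8 at 0.03 (SE 0.19). Of 9 genes of costimulation 6 were tested and none passed; 5 were above 0, with a median of 0.25. Cd86, a ligand of CD28, was at 0.72 (SE 0.29, adjusted p = 0.225) and Cd83 at 0.70 (SE 0.32), both with all AL/NP libraries above the controls. These were 2 of the 6, against 14.5% of all tested genes. Cd274, for PD-L1, was at 0.43 (SE 0.33). Cd80, the other CD28 ligand, was at -0.04 (SE 0.41), and Cd40 at 0.06 (SE 0.37).

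Class II is carried by macrophages, dendritic cells and B cells, whose markers were set beside it. In bulk liver, a change in the number of such cells cannot be told apart from a change in RNA per cell. All 12 macrophage markers had positive log2 fold changes, with a median of 1.04 and groups apart in 4, against 14.5% of all tested genes. Without control replicate 3 they were apart in 10, against 20.8% of all tested genes, with a median of 1.36. Their summed level was 567 to 853 CPM with AL/NP, against 281 to 393 CPM in controls. Lowest in p were Mpeg1 (1.20, SE 0.17, adjusted p = 0.0579), Laptm5 (1.44, SE 0.28, adjusted p = 0.0970) and Lyz2 (1.61, SE 0.48, adjusted p = 0.159). None of the 12 passed in edgeR, and DESeq2 called these 3, against 5.07% of all genes it tested. The classical chains had 0.115, 0.113 and 0.102 counts per count of the summed macrophage markers with AL/NP, against 0.108, 0.121 and 0.161 in controls. These ratios overlapped, and control replicate 3 was the highest of the 6. What part the macrophage markers had in the class II levels was not tested.

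Monocyte markers, all 6 above 0, had a median of 1.39, with the smallest p-values in Chil3 (3.78, adjusted p = 0.103), Ms4a4c (1.43) and Itgam (1.35), with summed levels of 24.2 to 55.9 CPM with AL/NP, against 16.5 to 28.9 CPM in controls. Neutrophil markers, 7 of 7 tested above 0, had a median of 1.30, with the smallest p-values in S100a9 (1.30), Trem1 (2.08) and S100a8 (1.48), with 35.0 to 74.9 CPM with AL/NP, against 19.0 to 34.2 CPM in controls. Kupffer cell markers were divided, 5 above 0 and 2 below with a median of 0.37: Cd5l was at 1.3 (adjusted p = 0.0640), Marco at 0.96 and Slc40a1 at -0.45. No gene of these 3 lists passed in edgeR, and DESeq2 called 4 monocyte, 3 neutrophil and 1 of 7 Kupffer cell markers, against 5.07% of all genes it tested.

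Dendritic cell markers had a median of 0.42, with 7 of 11 tested above 0. Their summed levels were 77.2 to 105 CPM with AL/NP, against 69.9 to 113 CPM in controls. None was called by edgeR, and DESeq2 called 1 of the 11, Clec10a, against 5.07% of all genes it tested. Without control replicate 3 the median was 0.68, and the groups were apart in 6 of 11 with AL/NP higher, against 20.8% of all tested genes. With that library included they were apart in that direction in 2 of 11, against 14.5% of all tested genes. AL/NP was lower without overlap in 1 of 11, Zbtb46 (-0.31, SE 0.21, adjusted p = 0.406, edgeR), against 15% of all tested genes. Kmo supplied 64.4% of the counts of that list. The smallest p-values were those of Clec10a (1.6, adjusted p = 0.128), which macrophages also express, Ccr7 (0.85, adjusted p = 0.255) and Flt3 (0.73, adjusted p = 0.303). Xcr1 and Clec9a, of cross-presenting dendritic cells, were at 0.50 (SE 0.43) and -0.15 (SE 0.37). With Kmo left out, a choice made after its share was seen, the classical chains had 1.99, 2.09 and 2.43 counts per count of these markers with AL/NP, against 1.5, 1.53 and 1.63 in controls, and these did not overlap.

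Of 11 B cell markers 3 had log2 fold changes above 0 and 8 below, with a median of -0.21 and none called by edgeR or DESeq2. They were low, at 7.85 to 11.3 CPM summed with AL/NP, against 9.13 to 16 CPM in controls, and none was at 0 in all 6 libraries. Without control replicate 3 their median was -0.23. Fcer2a (-1.25, adjusted p = 0.159), Pax5 (-1.07, adjusted p = 0.246) and Ms4a1 (-1.14, adjusted p = 0.264) had the smallest p-values. In Fcer2a and Pax5, as in H2-Ob, the AL/NP libraries were all below the controls. Fcer2a and Pax5 were 2 of the 11 B cell markers, against 15% of all tested genes with such groups. The classical chains had 8.31, 6.69 and 7.72 counts per count of the B cell markers with AL/NP, against 3.82, 2.98 and 3.96 in controls, without overlap.

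Of the other lists none had a called gene in edgeR. T and NK cell markers, the cells to which class II presents among them, had a median of 0.15 over 7 tested. Cd3e was at 3.35 (adjusted p = 0.150 in edgeR and 0.0364 in DESeq2), measuring 16.6, 2.67 and 1.22 CPM with AL/NP, against 0.718, 0.773 and 0.497 CPM in controls; Ncr1 was at -0.34, Nkg7 at 0.37 and Cd4 at -0.25 (SE 0.37). Medians were 0.28 for plasma cell markers (Jchain at 0.60, Derl3 at 0.85, Sdc1 at -0.05), 0.06 for endothelial markers (Pecam1 at 0.43, Tie1 at -0.24, Lyve1 at 0.38) and -0.35 for stellate cell markers (Dcn at 0.52, Reln at -0.56, Lrat at -0.35). They were 0.57 for cholangiocyte markers (Sox9 at 0.60, Epcam at 0.82, Spp1 at 0.43) and -0.55 for hepatocyte markers (Ttr at -0.82, Tat at -0.71, Asgr1 at 0.35). Stellate cell markers summed to 488 CPM in control replicate 3, against 307 and 225 CPM in the other controls and 225 to 427 CPM with AL/NP.

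**Figure D4:**
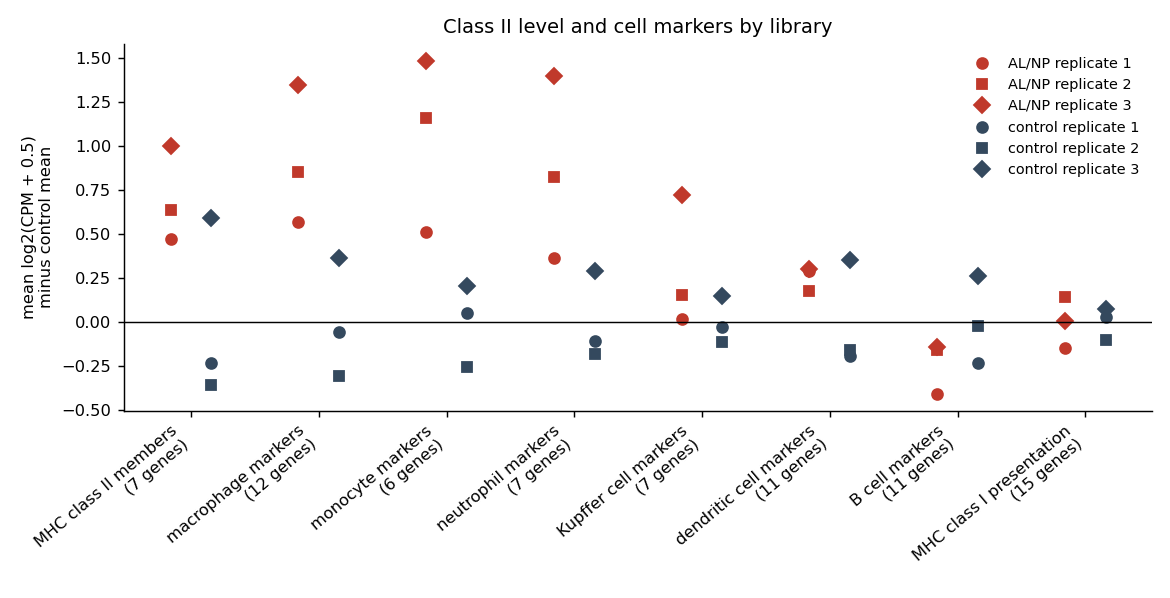
Mean over each list of log2(CPM + 0.5) minus the control mean, 1 point per library, AL/NP to the left of control. For the 7 class II genes control replicate 3 (0.59) lies between AL/NP replicates 1 and 2 (0.47 and 0.63), whereas for macrophage, monocyte and neutrophil markers it lies below all 3 AL/NP libraries; the class I list lies near 0 in all 6.

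The genes whose level over the 6 libraries was most like the mean of H2-Aa, H2-Ab1, H2-Eb1 and Cd74 were Syk, Cd48, Csf3r, Arhgap9, Themis2, Abi3, Cd300a and Tifab, at Pearson r of 0.989 to 0.995 on log2(CPM + 0.5). Among 12211 genes compared, 97 reached 0.95. Syk, a tyrosine kinase of immune receptors, measured 11.2, 11.8 and 14.8 CPM with AL/NP, against 5.23, 4.31 and 10.2 CPM in controls. Csf3r, the receptor for granulocyte colony-stimulating factor, measured 15.8, 17.3 and 26.0 CPM with AL/NP, against 8.01, 7.82 and 17.1 CPM in controls. Control replicate 3 was the highest control in both, which the choice by likeness favours. The log2 fold changes of the 8 genes ran from 0.63 for Abi3 to 1.06 for Cd300a, with adjusted p-values of 0.177 to 0.254.

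**Figure D5:**
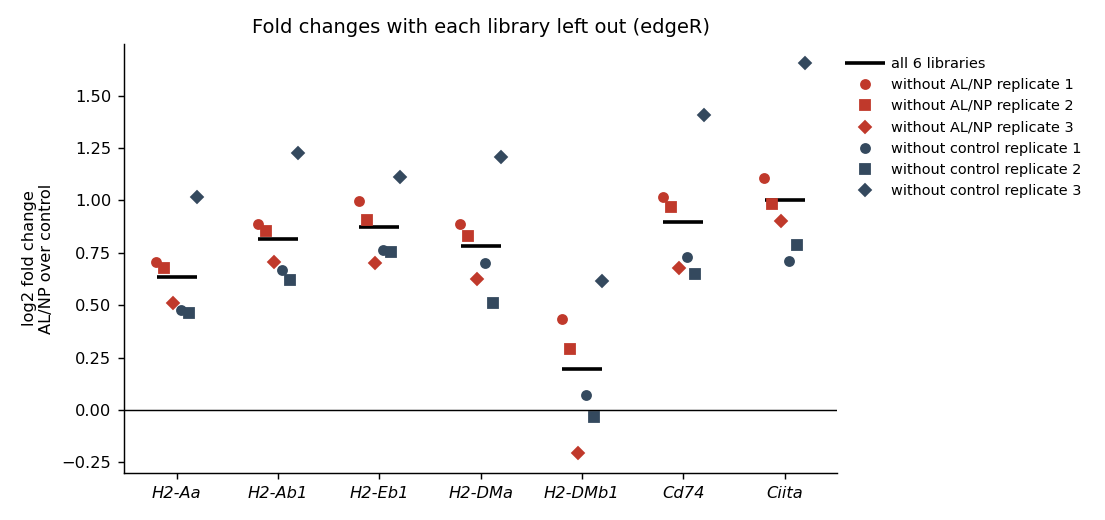
Log2 fold change of AL/NP over control for the 7 genes, with all 6 libraries (bar) and with each library left out in turn (points; shape gives the replicate number, red the AL/NP and dark the control libraries left out). In every gene the highest point is the one without control replicate 3, and H2-DMb1 is the gene with points below 0, at -0.21 and -0.03.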

How the data were processed

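Polyadenylated RNA of 6 liver samples was sequenced in paired ends from strand-marking libraries, per the labels' protocols. The authors deposited whole-number read counts per Ensembl gene without normalization; the submitters' processing notes name GRCm38, STAR 2.6.1a, featureCounts and DESeq2 1.26.0. Strand setting, annotation release and handling of multiply matching reads are not given in the sources used here. Symbols were found for 40254 of 41388 identifiers, and coordinates, exon lengths and overlaps came from GENCODE M21 (GRCm38); Gbp5 is not analysed here.

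Groups were compared over all genes with edgeR 4.0.16 in R 4.3.3 (quasi-likelihood, robust, TMM, filterByExpr with a minimum count of 10), with Benjamini-Hochberg adjustment over 15939 genes and a threshold of 0.05. SE is the absolute log2 fold change over the square root of F. The test was checked on simulated data. No pair of libraries was closer than 30.6 in chi-square per degree of freedom. DESeq2 1.42.0 and limma 3.58.1 (voom), other scalings and filters, a replicate block and left-out libraries were alternatives. Intervals and the 3-count level cover counting and replicate spread as fitted, not PCR copies.

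The members and gene lists were chosen with earlier results of these data known. Named genes are the 7, all tested genes of the other class II chains, promoter factors and interferon-gamma pathway, the 3 smallest p-values of each other list, the 8 genes most like the class II mean (at least 1 CPM, no predicted genes) and tested genes of the class II region. Further genes named (Ctss, Ctsl, Ctsb, Ctsh, Ifi30, Nlrc5, B2m, Cd80, Cd40, Gbp4, Gbp7, Xcr1, Clec9a, Zbtb46, Cd4, Kmo, Alb) were chosen after their values were seen. One gene of the interferon-gamma pathway is not reported here.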

Additional observations from a re-analysis of the deposited data

How the results depend on the processing

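The number of genes called over the whole table was unstable: 13 (10 higher, 3 lower) as reported, 0 with library totals as the only scaling, 0 with at least 50 counts in 3 libraries, 0 without robust estimation, 747 (374 higher, 373 lower) with no filter beyond 1 count, 844 (431 higher, 413 lower) in DESeq2, and 0 to 4 with 1 library left out; the cause was not tested. At an unadjusted p under 0.05 these edgeR settings with 0 calls had 2254, 2786 and 3133 genes, and those with 1 library left out 2229 to 3022. Library totals alone moved the median of all genes to 0.13 and that of the 7 class II genes to 1.01. Across the alternatives the median of the 7 stayed positive, at 0.62 to 1.21 with 1 library left out. H2-Eb1 passed with no filter (0.88, adjusted p = 0.00418) and in DESeq2 (0.88, adjusted p = 0.0187), and H2-Ab1 with no filter (0.82, adjusted p = 0.0477). H2-DMb1 ranged from -0.21 to 0.62 with 1 library left out. Ciita had no value under the filter of 50 counts, having too few. Same-numbered libraries did not deviate together (r = -0.05, 0.04 and 0.08 for numbers 1 to 3), and AL/NP replicates 1 and 2 each correlated more with a control of another number, so the numbers were not taken as pairs; the replicate block gave 23 calls (14 higher, 9 lower) and called none of the 7. Few counts limit the values of Ciita, H2-Ob, H2-Oa and Ifng.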
